A study of Mus musculus with 9 samples.

Results

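The Frizzled family comprises 10 genes in the mouse, Fzd1 to Fzd10, and all 10 were found by symbol among the 43548 gene identifiers of an RNAseq table from the E14.5 mouse skull. Each had a single row, none carried a placeholder, and all 10 passed the filter for testing (a mean of at least 0.5 FPKM, mapped fragments scaled to transcript length and library size). The study asked how Fgf8b produced in the surface ectoderm alters skull development, and it measured 3 groups of 3 libraries. MCAGF8 cranial vault came from embryos of an Msx2-Cre × CAGF8 cross that carried both alleles. CAGF8 is a Rosa26 allele from which the CAG promoter drives Fgf8b once Cre has removed a stop, and Msx2-Cre acts in the surface ectoderm and not in the mesenchyme that was sampled. Control cranial vault and control cranial base, which was dissected as cartilage, came from littermates without Cre. The labels call these controls wildtype and the strain mixed, whereas by the breeding scheme every embryo, control or mutant, inherited a CAGF8 allele, which a stop sequence keeps silent where there is no Cre. The CAGF8 line was kept on an outbred Black Swiss background. Skin was peeled off before the vault was collected, and each library is a pool of RNA from 3 of the 9 tissue samples of its group, so an SD (n = 3) and every p-value below describe the spread between pools, not between single embryos. Whether vault and base pools share control embryos is not stated, and both MCAGF8 comparisons share the MCAGF8 libraries.

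Frizzleds are receptors with a span of helices through the membrane and an extracellular cysteine-rich domain that holds a Wnt ligand. A bound Frizzled recruits the scaffold Dishevelled and, depending on ligand and co-receptor, feeds the beta-catenin pathway (with Lrp5 or Lrp6) or the planar cell polarity and other beta-catenin-independent pathways (with Ror2, Ryk or Ptk7). In the skull, Wnt signalling through beta-catenin is known to favour osteoblasts over chondrocytes among mesenchymal precursors. The receptors fall into related subfamilies, Fzd1, Fzd2 and Fzd7, then Fzd5 and Fzd8, then Fzd3 and Fzd6, and then Fzd4, Fzd9 and Fzd10, and the values are given in these groups.

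The motif through which Frizzleds bind Dishevelled is encoded by a short stretch of the coding sequence, a lysine and a threonine followed, after a gap of 3 residues, by a tryptophan, just inside the last membrane helix. Reading the longest coding transcript of each gene (GENCODE M21 on GRCm38) gave exactly 1 such stretch of 18 bases in each of the 10 genes. It is shown for Fzd10, for Fzd7, the most like it at this site among the 8 receptors compared (Fzd8 was not compared), and for Fzd9, Fzd5 and Fzd6, whose levels are compared below. The sequences run 5′ to 3′ along the coding strand, and capitals mark the lysine, threonine and tryptophan codons.
Fzd10: AAGACCctgcagtccTGG
Fzd7: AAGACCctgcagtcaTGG
Fzd5: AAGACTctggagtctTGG
Fzd9: AAGACTtttcagactTGG
Fzd6: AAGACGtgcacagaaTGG
The Fzd10 stretch lies at chr5:128602796-128602813 on the plus strand and that of Fzd9 at chr5:135249416-135249433 on the minus strand. Fzd7 is at chr1:59484607-59484624 (plus), Fzd5 at chr1:64735011-64735028 (minus) and Fzd6 at chr15:39033949-39033966 (plus). Over these 18 bases Fzd10 was identical to Fzd7 at 17 positions, to Fzd5 at 15, to Fzd9 at 13 and to Fzd6 at 8. A stretch this alike between paralogs bears on whether reads can be split between them. The longest run of bases shared exactly by 2 Frizzled transcripts was 47, between Fzd1 and Fzd2 and between Fzd1 and Fzd7, against a read length of 151 bases, so a whole read fits inside no shared run. Fzd10 (chromosome 5, 128600844 to 128604093) and Fzd9 (chromosome 5, 135248938 to 135251230) are single-exon genes with no annotated gene overlapping them. Fzd5 is overlapped on the other strand by Gm38058 and Fzd6 by Gm26704, which were listed at up to 0.124 and 0.389 FPKM. The library kit marks the strand, but no source used here says whether counting used it.

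All 10 receptors were detected in all 9 libraries. Fzd2 was the most abundant in every group, with 93.2 ± 13.2 FPKM (SD, n = 3) in the control vault, 102 ± 28.2 in the MCAGF8 vault and 83.0 ± 14.6 in the control base. FPKM are per length of transcript, so levels of different genes can be set side by side within a group. In the control vault Fzd2 was followed by Fzd1 (56.1 ± 4.80), Fzd7 (35.4 ± 5.37) and Fzd9 (25.0 ± 4.22), and none of these neighbours overlapped. Fzd8, Fzd4 and Fzd6 lay in the middle, at means of 16.0, 15.3 and 11.7 FPKM, and each overlapped the next. The lowest 3, Fzd5 (6.28 ± 0.531), Fzd3 (5.95 ± 1.52) and Fzd10 (5.74 ± 2.20), could not be ordered beyond their spread.

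In the MCAGF8 vault this order differed at both ends. Fzd10 ranked 5 of 10 at 18.3 ± 3.10 FPKM, overlapping Fzd6 (17.0 ± 3.39), and Fzd9 (48.5 ± 15.4) overlapped both Fzd1 (49.9 ± 8.49) and Fzd7 (44.9 ± 10.8). Fzd5 was last at 2.73 ± 0.245 and did not overlap Fzd3 (4.29 ± 0.813). In the control base Fzd5 was again last at 3.31 ± 0.910, and Fzd10 (6.10 ± 2.00) and Fzd3 (5.99 ± 1.24) overlapped just above it.

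**Figure D1:**
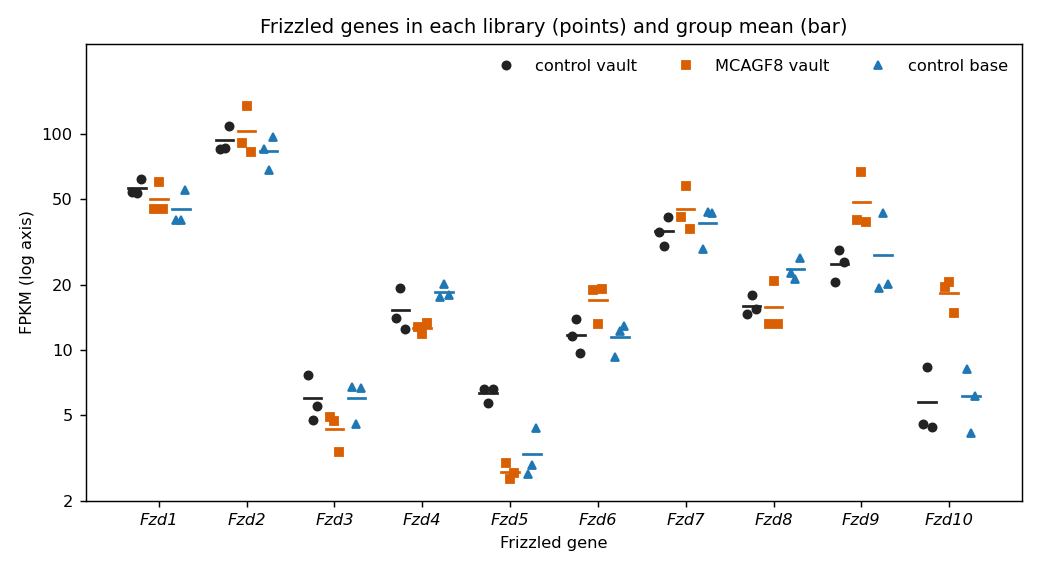
Level of each Frizzled gene (x axis) in FPKM on a log axis (y axis); points are single libraries, and bars are the means of the 3 libraries of the control vault, MCAGF8 vault and control base. The 3 MCAGF8 points of Fzd10 sit between 14.8 and 20.6, above all 6 control points, and those of Fzd5 sit between 2.51 and 3.00, below the 3 control vault points.

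Differences were tested on log2(FPKM + 1) with limma over the 18714 genes with enough signal. To be called, a gene needed both p under 0.05 before adjustment and p under 0.1 after Benjamini-Hochberg adjustment over all of them. The 1 added before the log makes the differences of the low genes smaller than their true size. Between MCAGF8 and control vaults, 1 of the 10 Frizzleds was called, Fzd10, and it was higher; over all genes tested, 0.604% were called and 0.23% were called higher. At an unadjusted p under 0.05, 3 of the 10 passed (Fzd5, Fzd9 and Fzd10), beside 6.34% of all genes. The 3 libraries of one vault lay wholly above or below those of the other for the same 3, against 19.2% of all genes. The median difference of the 10 was 0.03, beside -0.01 over all genes, so the family as a whole did not lie to one side. In bulk tissue, more RNA per cell and more cells of an expressing type cannot be told apart, and this holds for every difference given here. The study itself had singled out Fzd9 and Fzd10 from these libraries, so their values are not independent of that choice.

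Fzd10 rose in the MCAGF8 vault. This receptor is known to signal through beta-catenin. Its FPKM was 4.54, 8.28 and 4.39 in the control vault and 19.4, 20.6 and 14.8 in the MCAGF8 vault. The lowest MCAGF8 library was above the highest control library, and the ratio of means was 3.18. The log2 difference was 1.55 (SE 0.30, 95% interval 0.88 to 2.22), with an adjusted p of 0.0925 by limma, just inside the threshold. The direction was the same in all 20 alternative settings tried, with differences of 1.41 to 1.80, but Fzd10 was called in 8 of them, with adjusted p-values of 0.0522 to 0.464. Quantile normalization (adjusted p = 0.123), rescaling to a common median (0.103), no filter on low values (0.197), no moderation (0.343) and the replicate block (0.279) ended the call. So did leaving out control vault replicate 1 (0.300) or 3 (0.307), MCAGF8 replicate 1 (0.464), 2 (0.340) or 3 (0.188), or control base replicate 1 (0.103) or 3 (0.146), which enters only through the shared error. The number of genes called over the whole table moved with the libraries too, from 113 to between 11 and 231.

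Fzd10 also rose in the MCAGF8 vault relative to the control base, where its FPKM was 8.12, 4.11 and 6.08. The groups did not overlap, and the ratio of means was 2.99. The log2 difference was 1.47 (SE 0.30, 95% interval 0.80 to 2.13; adjusted p = 0.0238), and the call was lost in 1 of 20 alternatives, without MCAGF8 replicate 1 (1.42; adjusted p = 0.115). Fzd10 was again the 1 Frizzled of 10 called in this comparison, in which 8.39% of all genes were called and 2.98% were called higher. Between the control tissues the Fzd10 difference was 0.08 (base minus vault; 95% interval -0.58 to 0.75), and the libraries overlapped.

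Fzd9 is known as a receptor that osteoblasts need for normal bone formation. Its FPKM was 20.6, 29.0 and 25.4 in the control vault, 40.0, 66.2 and 39.2 in the MCAGF8 vault, and 19.2, 42.9 and 20.2 in the control base. All MCAGF8 libraries were above all control vault libraries, and the ratio of means was 1.94. The log2 difference was 0.90 (SE 0.33, 95% interval 0.17 to 1.63; unadjusted p = 0.0214, adjusted p = 0.561), so Fzd9 was not called, and no alternative called it. Against the control base the difference was 0.85 (95% interval 0.12 to 1.58; adjusted p = 0.188), and the groups overlapped because of control base replicate 2. Without that library the difference was 1.21 and Fzd9 was called (adjusted p = 0.0188). The base minus vault difference was 0.04 with all libraries and -0.32 without base replicate 2.

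Control base replicate 2 also stood apart in cartilage. The FPKM of 11 cartilage markers (such as Col2a1, Acan and Matn1) summed to 8172 in it, against 828 and 1228 in the other base libraries, 1500 to 2128 in the control vault and 2145 to 3978 in the MCAGF8 vault. The other base libraries were thus below every control vault library in this sum. Fzd9 was highest among the control libraries in base replicate 2, whereas Fzd10, at 4.11 FPKM, was lowest there. Within-group correlations of log2 values across genes were 0.904 to 0.946 in the base, 0.970 to 0.974 in the control vault and 0.959 to 0.980 in the MCAGF8 vault, with genes not being independent replicates.

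Taking Fzd9 and Fzd10 as a pair, which was done after their values were seen, their part of the summed Frizzled FPKM was 9.93%, 13.9% and 10.3% in the control vault and 20.6%, 22.2% and 20.1% in the MCAGF8 vault. In the control base it was 11.4%, 18.1% and 9.08%. The MCAGF8 libraries were above all 6 control libraries, the nearest being base replicate 2. The summed FPKM of the 10 receptors overlapped between groups, at 271 ± 18.7 in the control vault, 316 ± 65.5 in the MCAGF8 vault and 263 ± 25.1 in the control base (SD, n = 3). The shares describe receptors chosen for their higher values and carry no test.

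**Figure D2:**
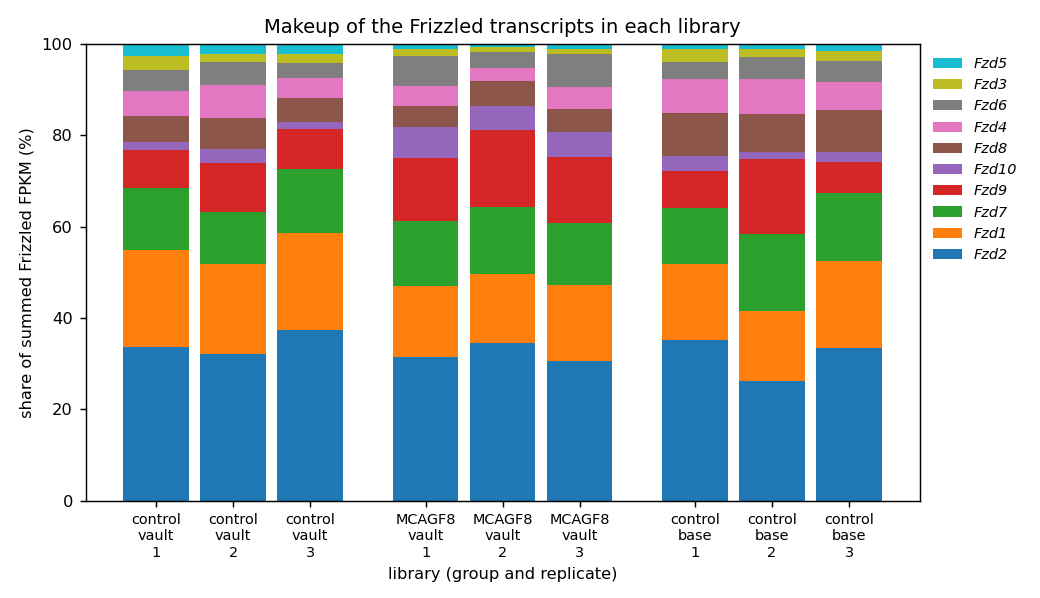
Share of each Frizzled gene (%, y axis) in the summed Frizzled FPKM of each of the 9 libraries (x axis). The segments of Fzd9 and Fzd10 together take 20.1% to 22.2% in the MCAGF8 vault and 9.08% to 18.1% in the 6 control libraries, and Fzd2 is the largest segment in every library.

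Fzd5, which is best known from vessel growth in the yolk sac and placenta, showed the opposite order. Its FPKM was 6.60, 5.67 and 6.57 in the control vault, 3.00, 2.51 and 2.68 in the MCAGF8 vault, and 2.65, 2.93 and 4.35 in the control base. The control vault was above every library of the other groups, which overlapped each other. The mean was 2.30 times as high in the control vault as in the MCAGF8 vault, a log2 difference of -0.96 (SE 0.22, 95% interval -1.46 to -0.47; unadjusted p = 0.0015, adjusted p = 0.160). Fzd5 was therefore not called, although 2 of 19 alternatives called it: the fit to only the 6 libraries compared (adjusted p = 0.0882) and the removal of a trend with transcript length and GC content (0.0515).

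Fzd5 was also lower in the control base than in the control vault in every library, by a log2 difference of -0.77 (95% interval -1.27 to -0.28; adjusted p = 0.135), which did not pass. It did pass in 4 of 19 alternatives, among them quantile normalization (-1.03; adjusted p = 0.0411) and the fit without control base replicate 3 (-0.94; adjusted p = 0.0893). Between the MCAGF8 vault and the control base Fzd5 differed by -0.19 (95% interval -0.68 to 0.30), and the groups overlapped.

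Fzd8, the nearest relative of Fzd5 and a receptor whose cysteine-rich domain was the first seen bound to a Wnt, followed another course. Its FPKM was 14.6, 17.8 and 15.5 in the control vault, 13.2, 20.8 and 13.2 in the MCAGF8 vault, and 22.7, 21.4 and 26.7 in the control base. The base libraries lay above all vault libraries of either kind, while the vaults overlapped. Neither step passed the test: base minus control vault was 0.53 (95% interval 0.05 to 1.02; adjusted p = 0.323) and MCAGF8 vault minus base was -0.58 (-1.06 to -0.09; adjusted p = 0.177). Without MCAGF8 replicate 2 the latter was -0.79 and was called (adjusted p = 0.0918). The vaults differed by -0.05 (95% interval -0.53 to 0.44).

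**Figure D3:**
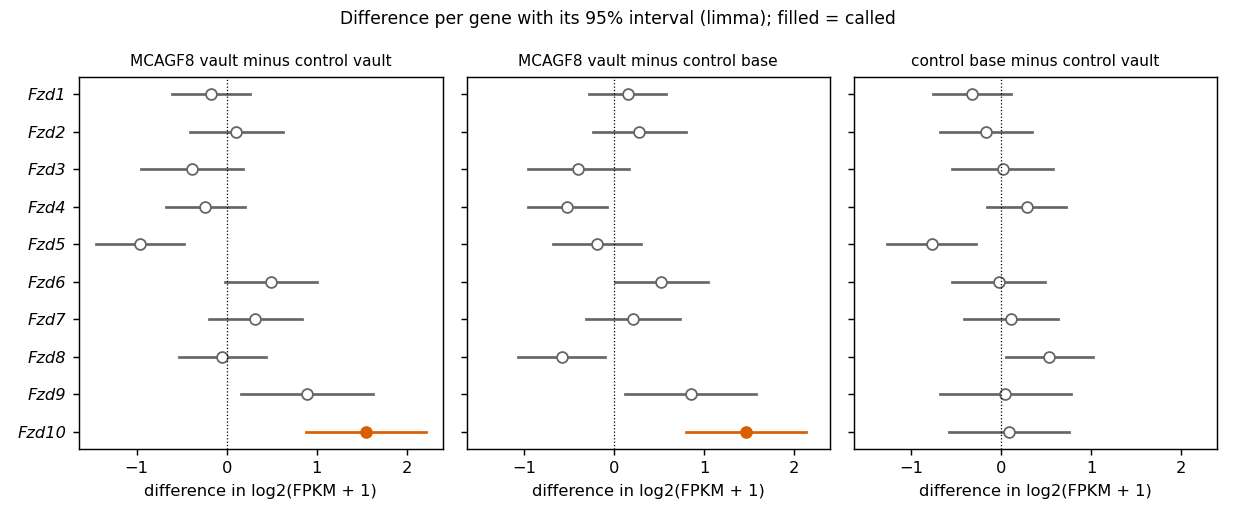
Difference in log2(FPKM + 1) of each Frizzled gene (x axis) with its 95% interval from limma, in the 3 comparisons; filled orange points are called genes. Fzd10 is the single filled point in both MCAGF8 comparisons, at 1.55 and 1.47, and no point is filled between control base and control vault.

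Fzd1, Fzd2 and Fzd7, which act in overlapping ways in closure of the palate and other processes, made up 68.1%, 62.1% and 63.2% of the summed Frizzled FPKM in the control vault, MCAGF8 vault and control base. Fzd2 measured 85.2, 86.1 and 108 FPKM in the control vault, 90.8, 135 and 81.9 in the MCAGF8 vault and 84.6, 67.7 and 96.8 in the control base. Fzd1 measured 53.7, 52.9 and 61.6, then 44.9, 59.7 and 45.0, then 40.0, 39.8 and 55.0 FPKM in the same order of groups. Fzd7 measured 34.9, 30.3 and 41.0, then 41.3, 57.1 and 36.4, then 29.2, 43.3 and 43.2 FPKM. For all 3 genes every pair of groups overlapped. MCAGF8 replicate 2 held the highest value of its group for each of them, as it did for Fzd8, Fzd9 and Fzd10. Its FPKM over all genes also summed highest in the group, to 1041401.0 against 847560.5 in replicate 1 and 849053.2 in replicate 3. Across all libraries such sums ran from 793249.1 to 1315981.5. Between the vaults the differences were 0.11 for Fzd2 (95% interval -0.40 to 0.62), -0.18 for Fzd1 (-0.61 to 0.26) and 0.32 for Fzd7 (-0.20 to 0.84). These bounds do not reach the difference measured for Fzd10 but do not show equal levels either.

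Fzd3 and Fzd6 are the receptors of planar cell polarity, known from axon guidance and the orientation of hairs. Fzd6 was 11.6, 13.9 and 9.66 FPKM in the control vault, 18.8, 13.1 and 19.1 in the MCAGF8 vault and 9.25, 12.2 and 12.9 in the control base. Only MCAGF8 replicate 2 fell within the control vault range, and all MCAGF8 libraries were above the base. The differences were 0.50 against the control vault (95% interval -0.02 to 1.01; adjusted p = 0.819) and 0.53 against the base (0.01 to 1.04; adjusted p = 0.245), neither of which passed. Fzd3 was 7.65, 4.72 and 5.50 FPKM in the control vault, 4.86, 4.66 and 3.36 in the MCAGF8 vault and 6.73, 4.55 and 6.68 in the control base. Its differences of -0.38 (95% interval -0.95 to 0.18) and -0.40 (-0.96 to 0.17) lay on the other side of 0 from those of Fzd6, with overlapping libraries.

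Fzd4, the receptor of the vascular ligand norrin, was 14.1, 19.2 and 12.5 FPKM in the control vault, 12.7, 11.8 and 13.3 in the MCAGF8 vault and 17.5, 20.1 and 17.9 in the control base. The MCAGF8 libraries were below every base library (-0.52; 95% interval -0.96 to -0.08; adjusted p = 0.183) and overlapped the control vault (-0.24; -0.68 to 0.20). The FPKM of 8 endothelial markers summed to 315 to 364 in the control vault and 263 to 326 in the base. In the MCAGF8 vault the sum was 358 to 513, which overlapped the control vault. Any part of vessel content in the Fzd4 values was not tested.

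Counting over the family against the control base, 4 of 10 receptors did not overlap (Fzd6 and Fzd10 higher, Fzd4 and Fzd8 lower in the MCAGF8 vault), beside 21.9% of all genes. At an unadjusted p under 0.05, 5 of 10 passed there, with Fzd9 added, beside 19.6%. Between control base and control vault, 2 of 10 did not overlap (Fzd8 and Fzd5), beside 15.5%, and none of the 10 was called by limma, beside 3.06%; the same 2 had an unadjusted p under 0.05, as did 12.8% of all genes, and the linear model without moderation called none either. The family medians were 0.18 and 0.03, and those of all genes -0.07 and 0.07.

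Tissue makeup moved with the groups. The FPKM of 12 skin epidermis markers (such as Krt5, Krt14 and Trp63) summed to 55.4, 107 and 33.4 in control vault replicates 1, 2 and 3, 466, 438 and 799 in the MCAGF8 replicates and 597, 133 and 807 in the base replicates. Fzd10 in the same order was 4.54, 8.28 and 4.39, then 19.4, 20.6 and 14.8, then 8.12, 4.11 and 6.08 FPKM. Within the control vault the library order was the same for both, within the MCAGF8 vault it was the reverse, and in the base the lowest of both was replicate 2. The sums were made of different markers. Krt5 was 39.2, 17.8 and 117 FPKM in the base, below every MCAGF8 library (139 to 252), whereas Krt15 was 274, 10.9 and 300 in the base against 64.4 to 112 in the MCAGF8 vault. The 12 epidermal markers had a median log2 difference of 2.13 between control base and control vault, where Fzd10 differed by 0.08, and of 2.37 between the vaults, where it differed by 1.55.

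In the other direction, 9 osteoblast markers (such as Ibsp, Spp1 and Sp7) summed to 1378 to 3354 FPKM in the control vault, 143 to 292 in the MCAGF8 vault and 496 to 1396 in the base. The 9 skeletal muscle markers summed to 878 to 5615, 18.6 to 187 and 1686 to 11084. Schwann cell markers (5 genes) summed to 22.7 to 32.1, 10.9 to 21.0 and 55.6 to 156, brain markers (9 of 10 in the table) to 24.6 to 80.0, 42.4 to 79.8 and 161 to 554, macrophage markers (8 genes) to 328 to 412, 300 to 475 and 140 to 362, and meningeal markers (6 genes) to 635 to 787, 542 to 1084 and 396 to 879. None of these markers was at 0 across a group. The brain and meningeal sums follow their most abundant members. Stmn2, the largest part of the brain sum, averaged 29.4 FPKM in the control vault and 51.0 in the MCAGF8 vault. It was the 1 of 7 tested brain markers with a positive difference between the vaults, and their median was -0.78. Of the 6 meningeal markers 2 were positive, including Zic1 (170 to 340 FPKM), with a median of -0.41. Fzd5, like the osteoblast sum, had its highest mean in the control vault. The part of tissue makeup in the Frizzled differences was not tested.

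**Figure D4:**
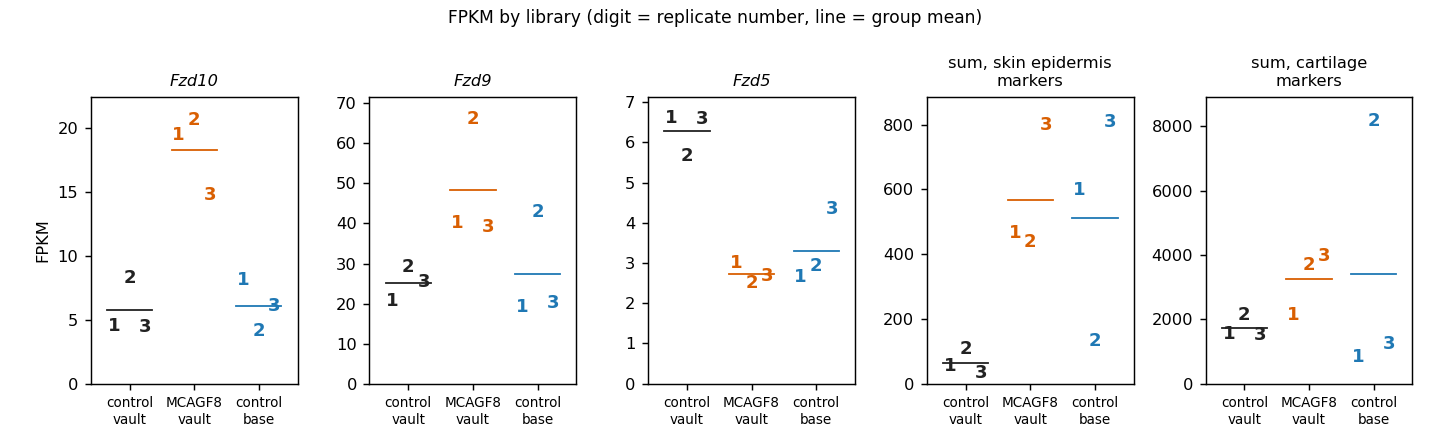
FPKM (y axis) of Fzd10, Fzd9 and Fzd5 and the summed FPKM of 12 skin epidermis and 11 cartilage markers in each group; digits are replicate numbers and lines are group means. Control base replicates 1 and 3 reach epidermal sums of 597 and 807 with Fzd10 at 8.12 and 6.08, and base replicate 2 combines the highest cartilage sum (8172) with the highest Fzd9 value of its group (42.9).

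Fgf8 itself, the targeted gene, measured 13.5, 8.25 and 3.01 FPKM in the control vault, 19.5, 9.43 and 13.0 in the MCAGF8 vault and 3.78, 17.4 and 5.82 in the control base. The groups overlapped (MCAGF8 minus control vault 0.83, 95% interval -0.45 to 2.11), so Fgf8 does not check the labels in this tissue. The skin had been peeled off, but epidermal transcripts remained. Their marker sums were 438 to 799 FPKM in the MCAGF8 vault and 33.4 to 107 in the control vault.

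The genes whose profile over the 9 libraries lay closest to that of Fzd10 were Wnt6, Gm2115 and Wnt5a, at root mean square distances of 0.29, 0.31 and 0.33 between centred log2 values, among 17055 genes averaging 1 FPKM or more. Wnt6, a ligand made in ectoderm, measured 7.87, 10.01 and 8.77 FPKM in the control vault, 18.4, 22.6 and 15.6 in the MCAGF8 vault and 9.04, 6.11 and 8.55 in the base. Wnt5a, a ligand of the beta-catenin-independent pathways, measured 25.7, 39.0 and 23.8, then 92.3, 74.4 and 72.4, then 26.6, 36.8 and 29.4. Both were chosen for their likeness to Fzd10 over these libraries, so their separation of the groups follows from that choice. Wnt6 was not called between the vaults (adjusted p = 0.146 by limma).

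Of the 19 Wnt ligands, 15 passed the filter, and 5 of the 15 rose in the MCAGF8 vault against the control vault, where 0.604% of all genes were called. None was called lower. Of the 15, 8 lay wholly above the control vault libraries and 2 wholly below, against 19.2% of all genes in either direction. The 8 take in Wnt3a and Wnt7a, whose testing is limited as given below. Those below were Wnt2 (-0.93; unadjusted p = 0.0318, adjusted p = 0.668 by limma) and Wnt2b (-0.47; adjusted p = 0.916). The ligands' median difference was 0.57 and that of the receptors 0.03. These medians are not compared, because the first takes in ligands that passed the filter only through their MCAGF8 values, named below. The ligands that rose were Wnt3 (1.93), Wnt4 (1.74), Wnt7b (1.58), Wnt3a (1.56) and Wnt5a (1.43). Epidermal marker sums also differed between the vaults, at 438 to 799 FPKM in the MCAGF8 vault and 33.4 to 107 in the control vault. The part of epidermal content in the ligand values was not tested. Wnt3 averaged only 0.258 FPKM in the control vault, 3.68 in the MCAGF8 vault and 0.919 in the base. For Wnt3a these means were 0.151, 2.42 and 0.559. Over the control libraries alone, Wnt3a and Wnt7a averaged under the filter of 0.5 FPKM, so only their MCAGF8 values let them be tested. Wnt3a is counted among the 5 here and among the 5 against the control base, so neither count is support for a rise of the ligands as a set. Wnt4 went from 2.15 ± 0.435 to 9.48 ± 0.777 FPKM and Wnt7b from 1.93 ± 0.376 to 7.73 ± 0.708 (SD, n = 3), with adjusted p-values of 0.0374 and 0.0373 by limma. Against the control base, where 8.39% of all genes were called, 5 of the 15 rose and none was called lower. Those that rose were Wnt3 (1.36), Wnt5a (1.34), Wnt6 (1.16), Wnt3a (1.16) and Wnt2b (1.01). Between base and vault controls Wnt7b (1.31) and Wnt4 (1.24) were higher in the base, and Wnt2 (-1.99) and Wnt2b (-1.48) were lower. Wnt4 and Wnt7b thus also differed between the control tissues, where Fzd10 differed by 0.08. The study picked Wnt2, Wnt4, Wnt5a, Wnt6 and Wnt7b, with Axin2, Lef1 and Prickle1 of the lists below, from these libraries, so these counts are not independent of that choice.

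None of 10 co-receptors and other Wnt receptors, 12 Dishevelled and planar polarity genes, 10 turnover genes (of 11 listed), 8 other genes with a frizzled-type cysteine-rich domain (of 9) and 10 genes of the canonical core was called between the vaults by limma, where 0.604% of all genes were, so a count of 0 in lists this short says little about them. At an unadjusted p under 0.05, 3, 2, 3, 0 and 3 of them passed, beside 6.34% of all genes. Of the co-receptors, Ptk7 (133 FPKM against 85.3 in the control vault) and Adgra2 (133 against 95.7) were higher. Musk (0.162 against 1.75) was lower. In the core, Axin2 (42.3 FPKM against 21.7 in the control vault) and Lef1 (19.3 against 5.51) were higher. Tcf7 was lower (11.3 against 32.6). The polarity genes were Prickle1 (44.8 against 27.0) and Celsr1 (5.15 against 2.43), both higher. Of the turnover genes Rnf43 was higher, and Rspo2 and Shisa3 were lower. The paper reports Axin2, Lef1 and Prickle1 as upregulated in the MCAGF8 vault. All these genes were named after their values were seen. The linear model without moderation called no gene of any kind in that comparison.

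Against the control base, where 8.39% of all genes were called, 4 of the 10 co-receptors rose, Reck (1.34), Adgra2 (1.07), Ptk7 (0.95) and Ror2 (0.85), and 2 fell, the muscle receptor Musk (-1.16) and the Fzd4 partner Tspan12 (-1.09). Reck and Adgra2 together present Wnt7 ligands to Frizzleds at blood vessels. The polarity genes Prickle2 (0.85) and Prickle1 (0.72) rose, as did Axin2 (1.15), a feedback target of beta-catenin, and the cysteine-rich domain enzyme Cpz (2.67). Shisa3, which holds back Frizzled maturation in the endoplasmic reticulum, fell by 2.23. Between the control tissues, Reck (-1.04) and Cpz (-3.36) were lower and Rnf43 (1.10), a ubiquitin ligase that removes Frizzleds from the surface, was higher in the base. Wnt3a, Wnt5a against the control vault, Wnt2b and Wnt3a against the base, Wnt4 in the control tissues, Adgra2, Ptk7 and Ror2 were named after their values were seen, so that each short count is complete.

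**Figure D5:**
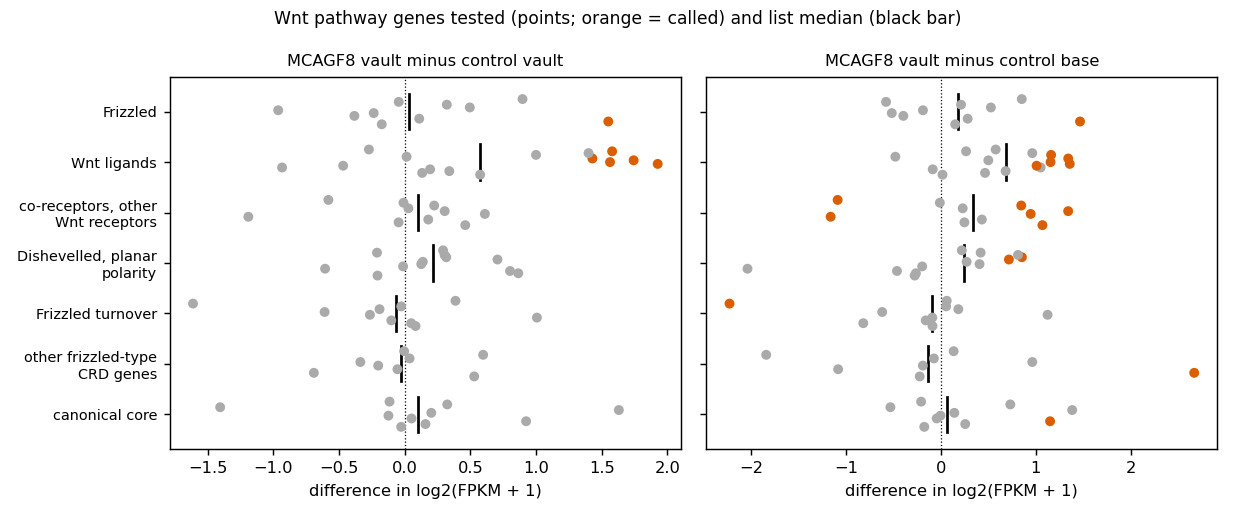
Difference in log2(FPKM + 1) (x axis) of each tested gene of the Frizzled family and of 6 other lists of Wnt pathway genes (y axis), for the MCAGF8 vault minus the control vault and minus the control base; orange points are called genes and black bars are list medians. In the first comparison the called points are Fzd10 and 5 Wnt ligands, and in the second they also include co-receptors, Prickle1, Prickle2, Shisa3, Cpz and Axin2.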

How the data were processed

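From stranded mRNA libraries the authors obtained single-end reads of 151 bases, and gSNAP (mapping) and Cufflinks (expression) produced the deposited FPKM, 1 value per Ensembl gene and library. The build, annotation and program versions are named in no source used here. Reads per library are not given, so depth is unknown and precision rests on the SD of 3 pools.

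The 63 repeated rows of the 43611 were added to their partners, and 9 genes with a placeholder in 17 cells were left out. Symbols were matched for 42384 identifiers. The 18714 genes with a mean of at least 0.5 FPKM entered a limma fit (version 3.58.1, R 4.3.3) on log2(FPKM + 1), with 1 mean per group over all 9 libraries, two-sided, and eBayes with a trend. The script was tested on simulated data. An exact permutation test of 3 against 3 libraries cannot go below p = 0.1 and was not used. Means, ratios and distances were computed in Python 3.11.15 using numpy 2.4.6 and pandas 2.3.3, and plots used matplotlib 3.10.9. Sequences are from GENCODE M21 on GRCm38.

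All 10 Frizzleds are named. Other Wnt pathway genes are named if called with no overlap, up to 3 per list and comparison, along with the 3 genes nearest to a called Frizzled, and Fgf8. Further ones were named after their values were seen. The members, lists and tests were chosen with earlier results of these data known. Alternatives were other pseudocounts, filters, scalings, thresholds and fits, the replicate number as a block, and each library left out in turn.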

Additional observations from a re-analysis of the deposited data

How the results depend on the processing

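Of the counts of called Frizzleds (1 between the vaults, 1 against the control base, 0 between the controls), that between the vaults was 0 at an adjusted p under 0.05, with no filter, after quantile normalization, after rescaling to a common median, without moderation and with the replicate block, and 2 in the fit to only the 6 libraries compared and after removal of the length and GC trend, an alternative chosen after seeing the data. At an unadjusted p under 0.05 alone the counts were 3, 5 and 2. The count against the base was 4 without the length and GC trend (Fzd4, Fzd6, Fzd8 and Fzd10), and that between the controls was 1 after quantile normalization, after rescaling to a common median and without the length and GC trend. Leaving out 1 library gave 0 to 1, 0 to 2 and 0 to 1. Same-numbered libraries did not deviate together (r from -0.55 to 0.37, with 1 of 9 closest to its own number). Tissue makeup also varied within groups, so this cannot tell whether same-numbered pools share embryos, litters or a batch, which is not stated. With the replicate block in the limma fit, 0, 1 and 0 Frizzleds were called, and the adjusted p of Fzd10 between the vaults was 0.279.

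Of 597 gene-wise values under an alternative, 548 kept their direction and their side of the threshold, 13 lost a call and 11 gained one. The 25 that turned direction were of genes not called in the comparison concerned, among them Fzd10 between the control tissues. After quantile normalization, Fzd5 was 0.12 (MCAGF8 vault minus base), and Fzd3 was -0.20 and Fzd10 -0.13 (base minus control vault). Rescaling to a sum of 1000000, which moved the median of all genes to 0.13 and 0.11 in the MCAGF8 comparisons, gave Fzd8 0.12 (MCAGF8 minus control vault) and Fzd3 -0.028 (base minus control vault). In the latter comparison, rescaling to a common median gave Fzd3 -0.078, Fzd9 -0.058 and Fzd10 -0.0053, and removing the length and GC trend gave Fzd3 -0.083 and Fzd9 -0.17. Leaving out 1 library gave -0.12 to 0.18 for Fzd3, -0.15 to 0.10 for Fzd6, -0.32 to 0.24 for Fzd9 and -0.12 to 0.34 for Fzd10 (base minus control vault), and -0.25 to 0.058 for Fzd8 and -0.10 to 0.25 for Fzd2 (MCAGF8 minus control vault). The cause was not tested. The filter at 5 FPKM left out Fzd5. Depth is unknown, so no lower limit on a detectable difference is given.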
